A study of Mus musculus with 8 samples.

Results

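The nucleolar ribosome assembly and RNA polymerase I set holds 43 genes, chosen by symbol, whose products transcribe ribosomal RNA, modify and fold it, and assemble it into precursor subunits. All 43 of the 39017 genes in the table were found, 42 under their own symbol and Nifk by its Ensembl identifier (the table lists it as Mki67ip), and all 43 had enough counts to be tested. RNA was sequenced from cultured satellite cells (muscle stem cells) of the diaphragm and abdominal muscle of adult Pax3GFP/+ mice, so cells of both groups carry the GFP reporter at the Pax3 locus. The cells were seeded at 7500 per 35 mm plate and cultured for 4 days with 10 µM sal003, an inhibitor of eIF2α dephosphorylation (4 libraries), or with DMSO, its vehicle (4 libraries). The labels do not say whether libraries came from separate animals or cultures, so a p-value here speaks of the spread among libraries only, which may be technical.

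In the nucleolus, RNA polymerase I copies the ribosomal DNA into a long precursor RNA. Small nucleolar ribonucleoproteins (snoRNPs) then guide its methylation and pseudouridylation, and the small-subunit processome and a separate series of large-subunit particles fold, cut and trim it while ribosomal proteins are added. Demand for new ribosomes is known to be high in growing and dividing cells, and myoblasts are known to reduce ribosomal RNA synthesis as they differentiate. The transcription factor Myc is a known activator of many genes of this machinery and binds, with Max, the E-box CACGTG.

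The promoter windows of 4 members that hold this E-box are shown because the members rose to different extents or not at all. They are RefSeq sequences of build GRCm38.p6 from 250 bases before to 50 bases after the annotated start, all on the plus strand, written 5′ to 3′ with the E-box in capitals. They lie at chr17:71615965-71616264 (Wdr43), chr11:72441077-72441376 (Mybbp1a), chr6:125131633-125131932 (Nop2) and chr16:13780449-13780748 (Rrn3).
Wdr43: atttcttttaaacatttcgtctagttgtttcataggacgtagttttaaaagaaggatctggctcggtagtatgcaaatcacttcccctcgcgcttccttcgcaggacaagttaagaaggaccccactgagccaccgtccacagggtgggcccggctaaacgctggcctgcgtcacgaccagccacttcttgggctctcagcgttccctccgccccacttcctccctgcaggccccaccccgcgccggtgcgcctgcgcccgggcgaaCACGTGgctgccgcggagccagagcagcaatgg
Mybbp1a: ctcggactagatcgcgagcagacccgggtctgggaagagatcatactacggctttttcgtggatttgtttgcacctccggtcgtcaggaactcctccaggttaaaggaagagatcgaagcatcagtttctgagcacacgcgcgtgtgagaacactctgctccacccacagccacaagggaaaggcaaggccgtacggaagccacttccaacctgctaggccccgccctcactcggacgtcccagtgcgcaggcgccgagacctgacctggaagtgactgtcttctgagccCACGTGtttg
Nop2: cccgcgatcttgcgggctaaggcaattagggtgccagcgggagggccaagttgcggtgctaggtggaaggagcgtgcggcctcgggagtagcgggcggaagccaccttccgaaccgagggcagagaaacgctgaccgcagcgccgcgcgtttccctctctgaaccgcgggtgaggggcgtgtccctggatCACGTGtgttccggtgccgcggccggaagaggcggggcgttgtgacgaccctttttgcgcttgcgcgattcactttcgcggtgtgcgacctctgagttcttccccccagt
Rrn3: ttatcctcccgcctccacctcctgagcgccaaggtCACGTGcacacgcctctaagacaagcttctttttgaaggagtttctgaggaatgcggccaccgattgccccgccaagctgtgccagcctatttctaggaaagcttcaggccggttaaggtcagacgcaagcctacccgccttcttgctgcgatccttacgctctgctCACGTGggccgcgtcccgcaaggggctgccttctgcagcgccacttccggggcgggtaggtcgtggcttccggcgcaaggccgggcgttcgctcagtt
The first letter of the E-box lies at 17 in Wdr43, 40 in Mybbp1a and -60 in Nop2, and at -215 and -48 in Rrn3, counted with the annotated start as 0. RefSeq windows were found for 34 of the 43 members. CACGTG, which reads the same on both strands, occurred in 6 of the 34 (17.6%) and in 2187 of 27025 genes with a window (8.09%). The CCAAT box (CCAAT, either strand) occurred in 9 of the 34 (26.5%) and in 41.06% of genes, and the palindromic ZBTB33-type motif in 0 of the 34 and in 0.53% of genes. Of the 6 with an E-box, Wdr43, Mybbp1a and Nop2 were higher in sal003, while Nol11, Pes1 and Rrn3 did not pass the test. Of the 28 members with a window and no E-box, 18 were higher. A match of letters is a description and shows no binding.

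Transcripts of many nucleolar assembly genes were higher in sal003. Of 43 members, 24 rose, 1 fell and 18 did not pass the test (edgeR quasi-likelihood, adjusted p below 0.05 over all 15816 genes tested). Among all genes tested, 10.6% were called higher and 12.2% lower. In a fit limited to the 9120 genes at 10 CPM or more in at least 4 libraries, the shares were 17.4% and 20.4%. Of the 21 members above the members' median level 15 were higher, and of the other 22 members 9. The median log2 fold change of sal003 over DMSO was 0.44 over the members and -0.0034 over all genes tested. Members ranged from -0.49 for Rrp12 to 1.17 for Ncl, and 34 of the 43 estimates were positive. All 4 sal003 libraries lay above all 4 DMSO libraries at 25 members, a pattern seen at 13.1% of all genes tested, and below them at 0 members, a pattern seen at 13.7% of all genes. Without DMSO replicate 2, which stands apart from the other DMSO libraries, 27 members were higher and 1 lower, where 13.4% of all genes were called higher and 13.6% lower. All 24 members called in the full set were among the 27. Leaving out any of the other 7 libraries gave between 18 and 20 members higher, with 18 without DMSO replicate 1, DMSO replicate 3 or sal003 replicate 3. With library totals as the scaling, 27 members were higher and 0 lower, where 18.2% of all genes were called higher and 8.63% lower. Only Ncl, Npm1, Wdr43 and Nop56 passed a test against a change of 1.5-fold, which 1.68% of all genes passed upward.

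**Figure D1:**
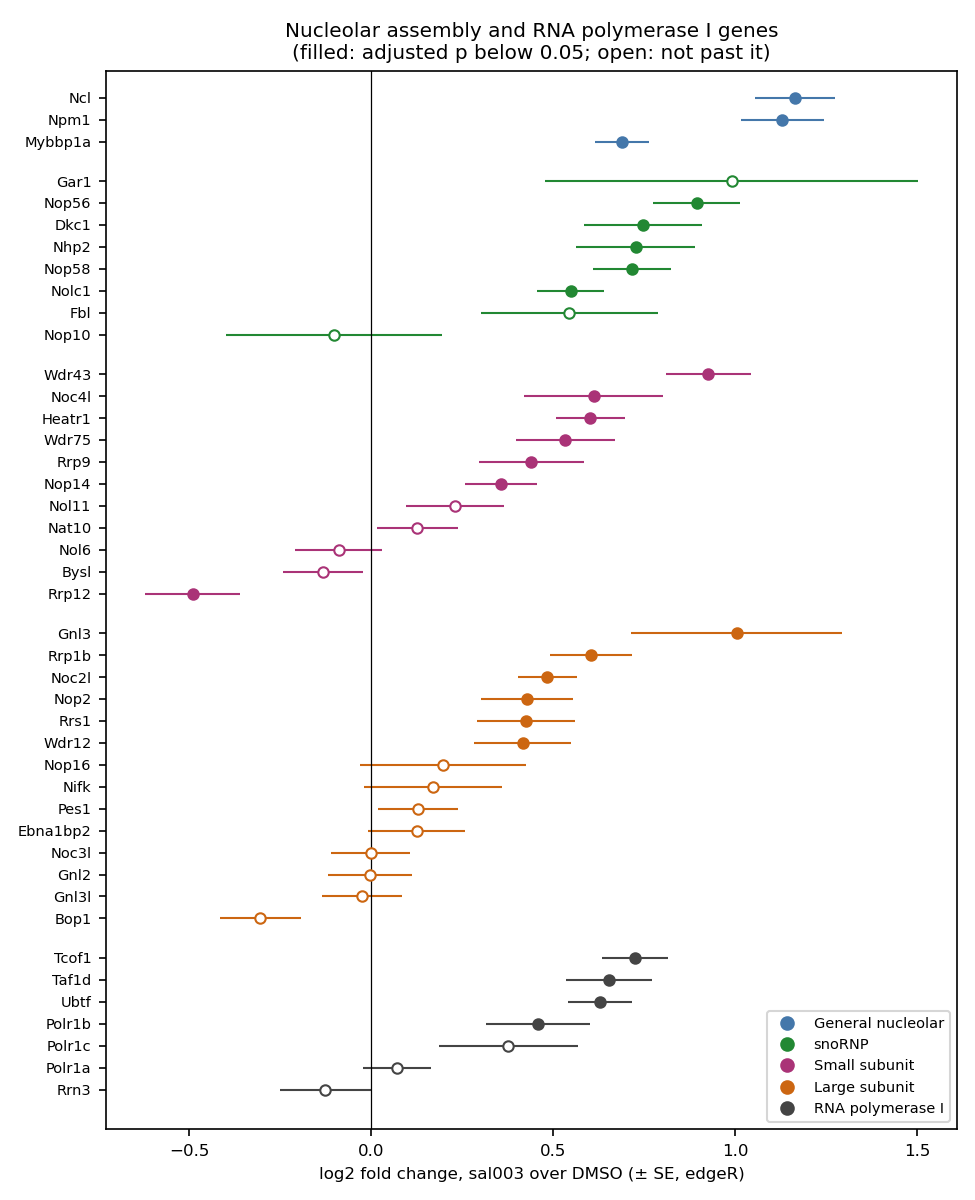
Log2 fold change (sal003 over DMSO) with SE for each of the 43 members, grouped by role; filled points passed the edgeR test, open points did not. The 3 general nucleolar genes and most snoRNP genes lie right of 0, Rrp12 is the filled point left of 0, and 4 large-subunit members lie left of 0.

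The libraries held between 32753929 and 40234107 counts, with 16561 to 18076 genes detected in 7 of them and 14437 in DMSO replicate 2. The members took between 0.429% and 0.468% of all counts in DMSO and between 0.762% and 0.799% in sal003. Proliferation markers moved with the members: all 12 were higher, and their summed level was 1952 to 2545 CPM (counts scaled to library size by TMM) in DMSO and 4674 to 4935 CPM in sal003. All 16 sarcomere and late differentiation markers were lower, with sums of 59511 to 84025 CPM in DMSO and of 16535 to 19259 CPM in sal003. Of the 8 satellite cell and myoblast markers, all detected, Pax7 rose, at 72.1 ± 6.74 CPM in DMSO against 97.2 ± 2.54 CPM in sal003 (SD, n = 4), while Des, Cdh15 and Itga7 fell. Myod1 (896 ± 85.8 CPM in DMSO against 892 ± 52.3 CPM in sal003), Pax3, Myf5 and Vcam1 did not pass, at -0.0064, 0.33, 0.38 and 0.58. The summed level of the 8 was 4260 to 4911 CPM in DMSO and 2490 to 2743 CPM in sal003. Des alone made up 2941 ± 224 CPM in DMSO against 1171 ± 40.7 CPM in sal003 (SD, n = 4). Markers of fibro-adipogenic cells summed to at most 5.23 CPM, of endothelial cells to at most 12.5 CPM and of immune cells to at most 5.82 CPM in any library, and the markers at 0 counts in all 8 were Dcn, Lum, Dpt and Mfap5 (fibro-adipogenic), Emcn and Cldn5 (endothelial) and Ptprc, Adgre1, Lyz2 and Cd3e (immune). Others of these lists were detected at low levels, among them Pdgfra (578 counts over the 8 libraries), Pecam1 (807) and Cd68 (843), and Vwf fell, at 8.33 ± 1.16 CPM in DMSO against 2.98 ± 0.592 CPM in sal003 (SD, n = 4), adjusted p = 0.00416. Smooth muscle and pericyte markers, 4 of 8 of them lower, summed to 1817 to 2010.5 CPM in DMSO and 596 to 778 CPM in sal003, of which Acta2, also expressed by myoblasts, made up 1545 ± 64.2 CPM in DMSO against 470.4 ± 84.9 CPM in sal003 (SD, n = 4). The part that the balance of cycling and differentiating cells has in the members' differences was not tested. In bulk libraries such as these, fewer cells of a type and less RNA per cell cannot be told apart.

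All 3 general nucleolar genes rose, and Ncl and Npm1 had the largest estimates of the 43 members. Ncl encodes nucleolin, which binds nascent precursor ribosomal RNA and takes part in its transcription and processing (ENSMUSG00000026234, chromosome 1, 86344719 to 86359400, minus strand of mm10). Its level was 709, 557, 829 and 848 CPM in DMSO replicates 1 to 4 and 1689.7, 1604, 1623 and 1685 CPM in sal003 replicates 1 to 4. Every sal003 library was above every DMSO library, with DMSO replicate 2 the lowest, and the log2 fold change was 1.17 ± 0.11 (SE; adjusted p = 1.37e-06). Npm1 encodes nucleophosmin, a histone and ribosome chaperone of the outer nucleolus (ENSMUSG00000057113, chromosome 11, 33152287 to 33163206, minus strand of mm10). It stood at 313, 420.5, 398 and 489 CPM in DMSO replicates 1 to 4 and 907, 812, 884 and 944 CPM in sal003 replicates 1 to 4. The groups did not overlap, and the log2 fold change was 1.13 ± 0.11 (adjusted p = 2.28e-06). Mybbp1a, which encodes a nucleolar partner of Myb proteins with known roles in polymerase I transcription, had 307, 306, 306 and 324 CPM in DMSO replicates 1 to 4 and 524, 484, 514 and 481 CPM in sal003 replicates 1 to 4. All DMSO values, of which replicate 4 was the highest, were below the sal003 values, and the log2 fold change was 0.69 ± 0.074 (adjusted p = 5.12e-06). Summed, the 3 genes were at 1452 ± 177 CPM in DMSO against 3038 ± 103 CPM in sal003 (SD, n = 4), 2.09 times the DMSO mean.

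**Figure D2:**
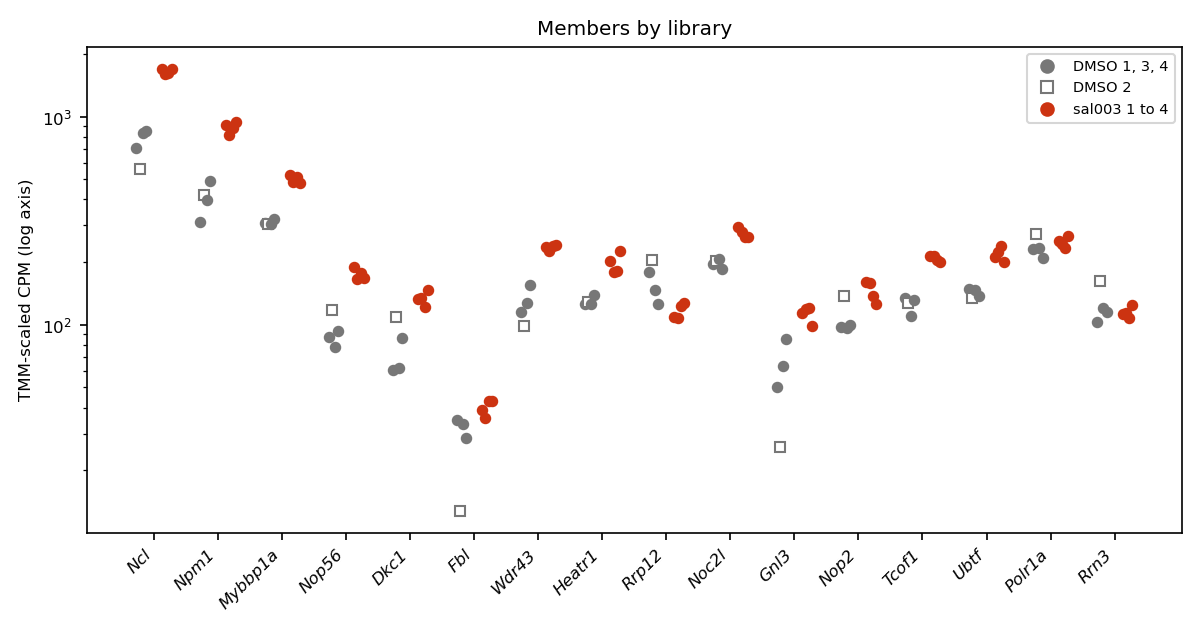
TMM-scaled CPM (log axis) of 16 members in each library, DMSO in grey and sal003 in red; the open square is DMSO replicate 2. The groups separate at Ncl, Npm1, Mybbp1a and Tcof1, overlap at Rrp12, Polr1a and Rrn3, and DMSO replicate 2 is the lowest point at Fbl and Gnl3.

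The snoRNP proteins rose in 5 of 8 cases and fell in 0, with a median log2 fold change of 0.72. Of the snoRNP, polymerase I and general nucleolar members, 0 were lower in edgeR at an unadjusted p below 0.05, in DESeq2 or in limma-voom. Of all genes, these gave 16.4%, 12.6% and 15.2% lower. The box C/D particle, which methylates ribosomal RNA, consists of fibrillarin (Fbl), Nop56, Nop58 and a small RNA-binding protein. Nop56, a core scaffold of the particle, had 87.0, 118, 78.0 and 93.0 CPM in DMSO replicates 1 to 4 and 189, 166, 176 and 168 CPM in sal003 replicates 1 to 4. The groups did not overlap (0.89 ± 0.12, adjusted p = 4.03e-05). Its paralog and partner Nop58 had 89.3, 103, 125 and 119 CPM in DMSO replicates 1 to 4 and 175, 177, 184 and 181 CPM in sal003 replicates 1 to 4. It rose by a log2 fold change of 0.72 ± 0.11 (adjusted p = 0.000124), and the groups did not overlap. Fbl, the methyltransferase itself, had 34.9, 12.8, 33.5 and 28.6 CPM in DMSO replicates 1 to 4 and 38.8, 35.5, 42.9959 and 42.8 CPM in sal003 replicates 1 to 4. The sal003 libraries were all above the DMSO libraries, DMSO replicate 2 was far below the other 3, and the estimate of 0.54 ± 0.24 did not pass (adjusted p = 0.136; 0.0404 with the replicate number as a block). Fbl is uncertain because its processed pseudogene Gm5812, 96.8% identical over 984 bases, held more counts than Fbl itself, 15032 against 10205 over the 8 libraries. With the counts of its copies added, Fbl passed (0.50, adjusted p = 0.00464, an alternative chosen after seeing the data).

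The box H/ACA particle makes pseudouridines and consists of the synthase dyskerin (Dkc1) with Nhp2, Nop10 and Gar1. Dkc1 had 60.8, 109, 61.9 and 86.2 CPM in DMSO replicates 1 to 4 and 132, 134, 122 and 147 CPM in sal003 replicates 1 to 4. DMSO replicate 2 was the highest DMSO library and still below all sal003 libraries (0.75 ± 0.16, adjusted p = 0.00367). Nhp2 had 39.1, 39.5, 23.2 and 29.0 CPM in DMSO replicates 1 to 4 and 54.7, 54.1, 53.7 and 54.0 CPM in sal003 replicates 1 to 4, and rose by 0.73 ± 0.16 on the log2 scale (adjusted p = 0.00378). The 4 sal003 values of Nhp2 lay close together and above all DMSO values. Gar1 was measured at low counts, at 13.0, 1.19, 10.8 and 9.36 CPM in DMSO replicates 1 to 4 and 19.0, 14.4, 16.4 and 18.4 CPM in sal003 replicates 1 to 4. The sal003 values were all above the DMSO values, but the estimate of 0.99 ± 0.51 did not pass (adjusted p = 0.220). Without DMSO replicate 2 the Gar1 estimate was 0.64, adjusted p = 0.0270, past the threshold. Nop10, which bridges dyskerin and Nhp2, had -0.10 ± 0.30 (adjusted p = 0.874) at 11.6 ± 3.93 CPM in DMSO against 10.8 ± 3.25 CPM in sal003 (SD, n = 4), and the groups overlapped. Nolc1, a chaperone that shuttles both classes of particle between nucleolus and Cajal bodies, had 177, 164, 205 and 199 CPM in DMSO replicates 1 to 4 and 264, 256, 291 and 279 CPM in sal003 replicates 1 to 4. It rose by 0.55 ± 0.092 (adjusted p = 0.000360), and the groups did not overlap. The summed level of the 8 genes was 549 ± 29.1 CPM in DMSO against 882 ± 26.4 CPM in sal003.

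Of 11 small-subunit factors, 6 rose, 1 fell and 4 did not pass, with a median of 0.36. Wdr43, Wdr75, Heatr1 and Nol11 belong to the subcomplex that binds the start of the precursor RNA and is known to support its transcription. Wdr43 had 114, 98.9, 128 and 154 CPM in DMSO replicates 1 to 4 and 235, 226, 238 and 241 CPM in sal003 replicates 1 to 4. It gave the largest estimate of the 11 (0.93 ± 0.12, adjusted p = 2.41e-05), with no overlap between the groups. Heatr1, a large helical repeat protein of this subcomplex, had 126, 128, 126 and 139 CPM in DMSO replicates 1 to 4 and 202, 179.5, 181 and 225 CPM in sal003 replicates 1 to 4. The sal003 libraries were all higher (0.60 ± 0.096, adjusted p = 0.000214). Wdr75 had 43.5, 58.3, 43.8 and 59.3 CPM in DMSO replicates 1 to 4 and 86.1, 69.4, 69.0 and 72.0 CPM in sal003 replicates 1 to 4, without overlap (0.53 ± 0.14, adjusted p = 0.00940). Nol11 did not pass at 0.23 ± 0.13 (adjusted p = 0.269), with DMSO replicate 1 at the low end and DMSO replicate 2 above all sal003 libraries. Without DMSO replicate 2 it passed at 0.35, adjusted p = 0.0316.

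Nop14 and Noc4l bind each other in the small-subunit precursor. Nop14 had 134, 104, 125 and 136 CPM in DMSO replicates 1 to 4 and 158, 160.4, 167 and 152 CPM in sal003 replicates 1 to 4. The groups did not overlap (0.36 ± 0.100, adjusted p = 0.0163), and the call was lost without sal003 replicate 3 (adjusted p = 0.0569). Noc4l rose by 0.61 ± 0.19 (adjusted p = 0.0294), with 14.7 ± 1.51 CPM in DMSO against 22.5 ± 3.65 CPM in sal003 (SD, n = 4), and Rrp9, a protein of the snoRNP that directs the early cleavages, by 0.44 ± 0.14 (adjusted p = 0.0386). Noc4l lost its call without DMSO replicate 1 or 3 or sal003 replicate 2, 3 or 4 (adjusted p from 0.0688 to 0.103). Rrp9 lost its call without DMSO replicate 3 or sal003 replicate 1, 2, 3 or 4 (adjusted p from 0.0571 to 0.141), and also with no filter on low counts (adjusted p = 0.0544) and with the replicate number as a block (adjusted p = 0.0685). Rrp12, a helical repeat protein of late small-subunit precursors and their export, was the member that fell. It had 179, 204, 147 and 126 CPM in DMSO replicates 1 to 4 and 109, 108, 123 and 127 CPM in sal003 replicates 1 to 4. Sal003 replicates 1, 2 and 3 were below all DMSO libraries, sal003 replicate 4 overlapped DMSO replicate 4, and the log2 fold change was -0.49 ± 0.13 (adjusted p = 0.0124). The Rrp12 call held whichever of the 8 libraries was left out and was lost with library totals as the scaling (-0.32, adjusted p = 0.0964). Nol6, Bysl, an export and cleavage factor, and Nat10, the acetyltransferase of small-subunit RNA, had estimates of -0.090 ± 0.12, -0.13 ± 0.11 and 0.13 ± 0.11 and did not pass. Exons of Bysl overlap those of Ccnd3 on the opposite strand over 361 bases (9.37% of its exon length), and Ccnd3 held 86436 counts against 24320, with strand settings of the counting not given in the sources used here.

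Large-subunit factors rose in 6 of 14 cases and fell in 0, with a median of 0.18. At an unadjusted p below 0.05 edgeR gave 6 higher and 1 lower, where it gave 15.5% and 16.4% of all genes. DESeq2 called 6 higher and 0 lower (10.6% and 12.6% of all genes), and limma-voom 7 higher and 0 lower (13.6% and 15.2%). Noc2l, which pairs with Noc1- and Noc3-type proteins in pre-large-subunit particles, had 195, 201, 206 and 185 CPM in DMSO replicates 1 to 4 and 294, 279, 264 and 262 CPM in sal003 replicates 1 to 4. The groups did not overlap (0.48 ± 0.081, adjusted p = 0.000355). Rrp1b, a nucleolar protein of large-subunit maturation, had 46.5, 59.8, 59.97 and 59.2 CPM in DMSO replicates 1 to 4 and 89.7, 85.7, 87.2 and 80.2 CPM in sal003 replicates 1 to 4. It rose by 0.60 ± 0.11 (adjusted p = 0.000941), and DMSO replicate 1 was below the other 3 DMSO libraries. Nop2, the cytosine methyltransferase of large-subunit RNA whose promoter window is printed above, had 98.0, 138, 96.1 and 99.9 CPM in DMSO replicates 1 to 4 and 159.6, 159, 137 and 126 CPM in sal003 replicates 1 to 4. DMSO replicate 2 exceeded sal003 replicates 3 and 4 (0.43 ± 0.13, adjusted p = 0.0220). The Nop2 call was lost without DMSO replicate 1, 3 or 4 or sal003 replicate 1 or 2 (adjusted p from 0.0527 to 0.0818).

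Gnl3 encodes nucleostemin, a nucleolar GTPase enriched in stem and proliferating cells. It had 50.4, 25.8, 63.6 and 85.0 CPM in DMSO replicates 1 to 4 and 114, 119, 119.7 and 98.0 CPM in sal003 replicates 1 to 4. The sal003 libraries were close together and above all DMSO libraries, which were widely spread with DMSO replicate 2 lowest. The estimate of 1.004 ± 0.29 passed (adjusted p = 0.0320), and the call was lost without DMSO replicate 1 or 3 or sal003 replicate 1, 2, 3 or 4 (adjusted p from 0.0514 to 0.0863) and with no filter on low counts (adjusted p = 0.122). Its relatives Gnl2 and Gnl3l had -0.0034 ± 0.12 (adjusted p = 0.990) and -0.026 ± 0.11 (adjusted p = 0.917), with overlapping groups. The PeBoW complex, in which Pes1, Bop1 and Wdr12 act together on the internal spacer, had 1 member higher of 3. Wdr12 rose (0.42 ± 0.13, adjusted p = 0.0345), a call lost without DMSO replicate 1 or 4 or sal003 replicate 1, 3 or 4 (adjusted p from 0.0635 to 0.125) and with the replicate number as a block (adjusted p = 0.0662). Pes1 had 0.13 ± 0.11 (adjusted p = 0.488), and Bop1 had 111, 129, 104 and 93.6 CPM in DMSO replicates 1 to 4 and 83.8, 85.1, 88.0 and 97.4 CPM in sal003 replicates 1 to 4. The Bop1 values overlapped, with an estimate below 0 (-0.30 ± 0.11, adjusted p = 0.0610), passing without DMSO replicate 4 (adjusted p = 0.0317) and with a filter of 10 CPM (0.0255). Whether the 3 subunits differ from each other was not tested. Rrs1, which helps to load the particle of the smallest ribosomal RNA, rose (0.42 ± 0.13, adjusted p = 0.0321), and its call was lost without DMSO replicate 1, 3 or 4 or sal003 replicate 2 or 3 (adjusted p from 0.0513 to 0.121). Nop16, Nifk, Ebna1bp2 and Noc3l, further factors of nucleolar large-subunit particles, had estimates between -0.0016 and 0.20 and did not pass. Nop16 passed without DMSO replicate 2 (0.49, adjusted p = 0.0438).

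RNA polymerase I genes rose in 4 of 7 cases and fell in 0, with a median of 0.46. Of the 4 genes grouped as transcription factors (Ubtf, Rrn3, Taf1d and the cofactor Tcof1) 3 rose, and of the 3 subunits 1. Tcof1 encodes treacle, a nucleolar phosphoprotein that binds the polymerase and the factor UBF, and had 134, 127, 109.9 and 132 CPM in DMSO replicates 1 to 4 and 213, 215, 205 and 199.6 CPM in sal003 replicates 1 to 4. All sal003 libraries were above all DMSO libraries (0.73 ± 0.090, adjusted p = 2.13e-05). Ubtf encodes UBF, the box protein that keeps ribosomal DNA open, and had 148, 134, 146 and 137 CPM in DMSO replicates 1 to 4 and 213, 223, 239 and 199 CPM in sal003 replicates 1 to 4. It rose without overlap (0.63 ± 0.088, adjusted p = 6.70e-05). Taf1d, a subunit of the promoter selectivity factor, had 65.6, 74.6, 78.7 and 97.6 CPM in DMSO replicates 1 to 4 and 130.2, 131, 114 and 123 CPM in sal003 replicates 1 to 4. Its groups did not overlap either (0.65 ± 0.12, adjusted p = 0.000719). Taf1d is uncertain because the snoRNA gene Gm23455, which overlaps its exons, held 2291, 2776, 2242 and 3839 counts in DMSO replicates 1 to 4. Taf1d held 2053, 2516, 2677 and 3712, and reads of host and snoRNA cannot be fully separated. Its processed pseudogene Gm13487 held 7106 counts over the 8 libraries against 31096 for Taf1d. With that copy added, Taf1d was at 0.62 (adjusted p = 0.000335).

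Of the polymerase subunits, Polr1b, the second largest, had 41.2, 47.1, 34.9 and 40.4 CPM in DMSO replicates 1 to 4 and 63.0, 48.0, 48.9 and 64.7 CPM in sal003 replicates 1 to 4. It rose by 0.46 ± 0.14 (adjusted p = 0.0298), and the call was lost without DMSO replicate 1, 3 or 4 or sal003 replicate 1 or 4 (adjusted p from 0.0512 to 0.108). Polr1a, the largest subunit, had 231, 273, 234 and 209 CPM in DMSO replicates 1 to 4 and 252, 244, 233 and 266 CPM in sal003 replicates 1 to 4. All sal003 values lay within the range of the DMSO values, and the log2 fold change was 0.070 ± 0.093 (adjusted p = 0.690). Polr1c, which polymerase III shares, had 0.38 ± 0.19 (adjusted p = 0.192). Rrn3, the growth-regulated initiation factor TIF-IA that recruits the polymerase and whose window holds 2 E-boxes, had 103, 162, 120.2 and 116 CPM in DMSO replicates 1 to 4 and 113, 113, 108 and 125 CPM in sal003 replicates 1 to 4. DMSO replicate 2 was above all other libraries and the rest overlapped (-0.13 ± 0.13, adjusted p = 0.568). Without DMSO replicate 2 the Rrn3 estimate was 0.035, adjusted p = 0.850. Whether transcription factors and subunits differ as classes was not tested.

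**Figure D3:**
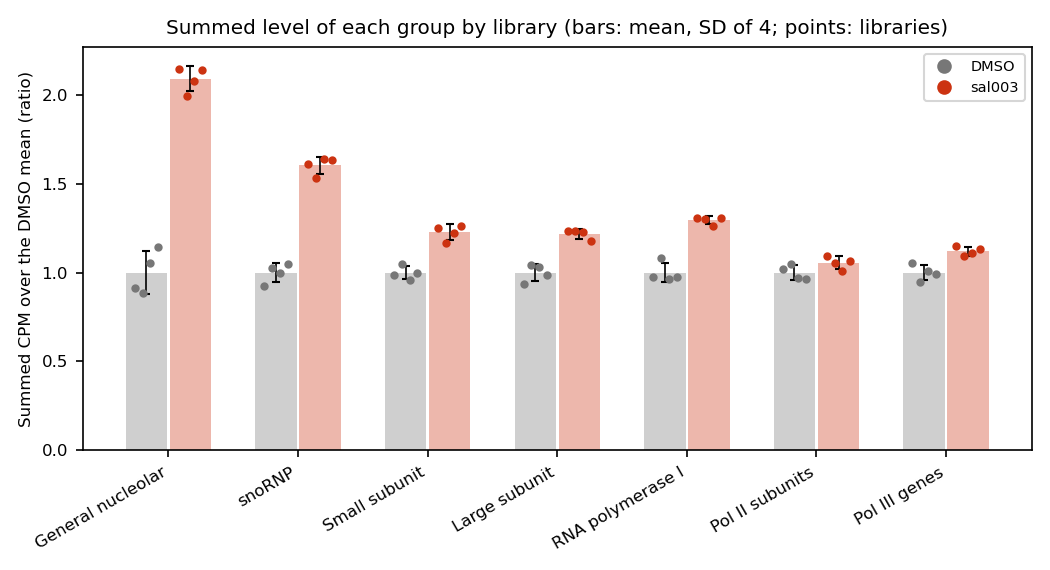
Summed TMM-scaled CPM of each role group in each library divided by the group's DMSO mean, with bars for the mean and SD of 4 libraries; polymerase II subunits and polymerase III genes are shown for comparison. The sal003 mean is 2.09 for the general nucleolar genes, 1.61 for the snoRNP genes, 1.30 for polymerase I, 1.23 for the small subunit, 1.22 for the large subunit, 1.12 for polymerase III and 1.06 for polymerase II.

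Per kilobase of merged exons in GENCODE M21, Npm1 was the most abundant member in both conditions, at 152 CPM per kb in DMSO and 333 in sal003, followed by Ncl (72.2 and 162) and Noc2l (68.6 and 95.9). The 7 most abundant members, with Mybbp1a, Nolc1, Nop14 and Nop2 after these, had the same order in both conditions. Wdr12 was the lowest, at 2.79 and 3.72 CPM per kb, over merged exons of 11955 bases. Rrp12 moved from rank 8 in DMSO to rank 17 in sal003, and Wdr43 from rank 13 to rank 8. Merged exon lengths include exons that these cells may not use, so all ranks, the first and last included, depend on the length used. Before division by length Ncl was above Npm1, at 736 against 405 CPM in DMSO and 1650 against 887 CPM in sal003. Their merged exons span 10188 and 2665 bases.

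The members that host small nucleolar RNAs on their own strand were all among those that rose. They were Wdr43, Gnl3, Nop56, Nop58, Dkc1, Taf1d and Ncl, 7 of 43 members (16.3%), where 266 of 21303 protein-coding genes of the table (1.25%) are hosts. Their log2 fold changes ran from 0.65 to 1.17 with a median of 0.89, and 17 of the 36 other members rose, with a median of 0.40. Among 219 other host genes tested, 55 were higher and 19 lower, and among 12254 other protein-coding genes 1470 were higher and 1827 lower. Of the 27 snoRNA genes that the 7 members host, 20 could be tested, and 17 of the 20 estimates were positive and 3 negative. Of all genes tested, 7877 of 15816 estimates were positive. Most of the snoRNA genes held few counts, many had 0 in DMSO replicate 2, and most SEs were large. Snora75 inside Ncl, for example, had 39, 0, 0 and 0 counts in DMSO replicates 1 to 4 and an estimate of 2.44 ± 1.59. The signs are therefore weak evidence. EdgeR called 1 of the 20 higher, where it called 10.6% of all genes higher: Gm23455 inside Taf1d (0.51 ± 0.13, adjusted p = 0.00722). The annotation places 18 of the 27 partly within exons of their host, so reads of host and snoRNA cannot be fully separated.

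Pseudogenes and neighbours limit some values. Processed pseudogene copies of at least 90% identity over 300 bases had rows of their own for 9 members. The 6 copies of Npm1 held 64079 counts against 199248 for Npm1, and with them added the log2 fold change was 1.10 (adjusted p = 2.12e-06). With all copies added to their parents, 25 members were higher, Fbl being the further one, and 1 was lower (10.6% and 12.2% of all genes). Exons of 19 members overlap an exon of a gene on the opposite strand, with the largest share in Noc2l (598 bases shared with Samd11, 20.9% of its exon length). Samd11 had only 131 counts in all, against 71397 for Noc2l.

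Other genes of the pathway, listed by textbook role, were tested as well. Of 115 tested, 36 were higher (31.3%) and 1 lower, with a median of 0.27. Among other small-subunit factors 14 of 43 rose and 0 fell. Those that rose included Utp20 (0.75 ± 0.082), Mphosph10 (0.70 ± 0.13), Utp18 (0.68 ± 0.15) and Nol10 (0.46 ± 0.11). Utp20 was at 172 ± 10.1 CPM in DMSO against 289.8 ± 11.4 CPM in sal003 (SD, n = 4). At an unadjusted p below 0.05, edgeR gave 20 of the 43 higher and 2 lower (15.5% and 16.4% of all genes). DESeq2 called 0 lower (12.6% of all genes) and limma-voom 2 (15.2%). Among other large-subunit factors 19 of 45 rose, with the lowest p for Mdn1, the giant ATPase that remodels the particles (304 ± 17.7 CPM in DMSO against 475 ± 26.2 CPM in sal003 (SD, n = 4); 0.64 ± 0.080), with Ppan, Ftsj3 and Rsl1d1 next, and 1 fell, the helicase Ddx51 (-0.75 ± 0.14). Of 11 snoRNP assembly factors 3 rose, Nufip1 (0.77 ± 0.18), Ruvbl2 (0.39 ± 0.13) and Naf1 (0.71 ± 0.24).

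The 16 other polymerase I genes, shared and specific subunits and selectivity factors not in the set, gave 0 calls in edgeR and 0 at an unadjusted p below 0.05, 0 in DESeq2 and 1 in limma-voom, higher. Their median log2 fold change was 0.23, with 13 of 16 estimates above 0. Their summed level was 473 ± 35.3 CPM in DMSO against 466 ± 16.8 CPM in sal003 (SD, n = 4). Polymerase II subunits gave 0 of 7 in edgeR, also at an unadjusted p below 0.05, and 0 in DESeq2 and limma-voom. Of all genes, edgeR called 10.6% higher and 12.2% lower (15.5% and 16.4% at an unadjusted p below 0.05). DESeq2 called 10.6% and 12.6%, and limma-voom 13.6% and 15.2%. Whether either of these short lists differs from all genes or from the members was not tested. Of 21 polymerase III genes 6 rose, among them Polr3e (0.75 ± 0.15) and Bdp1 (0.47 ± 0.11), and 2 fell, the initiation factors Brf1 (-0.43 ± 0.13) and Brf2 (-0.92 ± 0.28). Of 14 genes of the exosome and of other factors that trim ribosomal RNA, 6 rose. Among them were the exosome nuclease Dis3 (0.79 ± 0.091) and, outside the exosome itself, the helicase Mtrex (0.61 ± 0.12) and the nuclease Xrn2 (0.58 ± 0.12). Myc had 18.2, 13.7, 21.8 and 16.4 CPM in DMSO replicates 1 to 4 and 28.7, 31.8, 39.1 and 30.8 CPM in sal003 replicates 1 to 4. The groups did not overlap (0.90 ± 0.18, adjusted p = 0.00175), while its relative Mycl fell (-0.63 ± 0.14) and Max had -0.0094 ± 0.14. Mki67, the proliferation antigen, which also coats chromosomes with nucleolar proteins at mitosis, stood at 882 ± 181 CPM in DMSO against 1866 ± 86.8 CPM in sal003 (SD, n = 4).

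**Figure D4:**
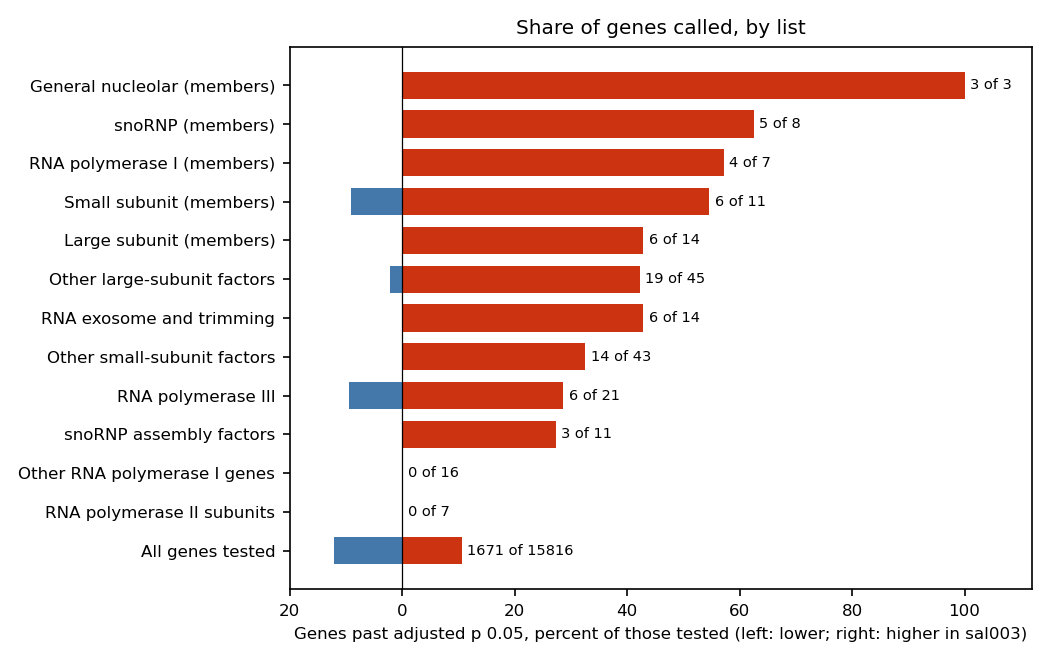
Percent of tested genes past the edgeR threshold, higher in sal003 to the right and lower to the left, for the 5 role groups of members, the other lists of the pathway and all genes, with counts beside the bars. The member groups run from 6 of 14 (large subunit) to 3 of 3 (general nucleolar), other polymerase I and polymerase II genes have 0, and all genes have 1671 of 15816 higher.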

How the data were processed

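RNA sequencing of 4 DMSO and 4 sal003 libraries was used. The authors deposited whole-number counts per Ensembl gene. Per the labels' protocols, RiboGone removed ribosomal and mitochondrial RNA before SMARTer stranded library preparation. The submitters' processing notes name mm10, featureCounts 1.4.4, STAR 2.3.0e and Trimmomatic 0.32, with settings for strand, multiple alignments and overlaps not given in the sources used here. The dose is 10 µM in the design text and sample attributes, and differs by its prefix in the treatment protocol.

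Counts were fitted with edgeR 4.0.16 in R 4.3.3: filterByExpr (minimum count 10, minimum total 15), TMM scaling, robust quasi-likelihood F tests by condition, Benjamini-Hochberg adjustment over 15816 genes, threshold 0.05, two-sided. SE is the log2 fold change over the root of F. The members and lists were chosen with earlier results of these data known, and groups follow textbook roles. Values in every library are given for members past the threshold with the lowest p in each role group, for Ncl, Npm1, Fbl, Polr1a, Ubtf and Rrn3, and for the member against the main direction. Values of Bop1, Nhp2 and Gar1 in every library were added after they were seen. So were the estimates of Max, Mycl, Pax3, Myf5 and Vcam1 and the group means of Pax7, Myod1, Des and Acta2. Positions and lengths are from GENCODE M21 (mm10). Replicate pairs differed by at least 24.5 chi-square per degree of freedom, so none was treated as a duplicate. On simulated counts for this comparison (15099 genes tested), recovery was 17 of 61 at 1.5-fold, 31 of 60 at 2-fold and 44 of 62 at 4-fold, with 7 of 14916 unchanged genes called. Alternatives used other scalings, filters and tests (DESeq2 1.42.0, limma 3.58.1), a replicate block, leaving out each library, halved counts (75.6% to 83.4% of low counts in a library are even) and, added later, copies summed with their parents.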

Additional observations from a re-analysis of the deposited data

Results flagged for a closer look

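Within a condition of 4 libraries, a library at an end of the range was scored by its gap to the next, over the range. By this rule 1 library stood apart at 4 of the 86 member and condition pairs examined. About 1 in 20 would be flagged by chance in independent pairs, but members share libraries. The score is relative: Gar1 and Fbl in DMSO replicate 2 (1.19 and 12.8 CPM) were not flagged. Nop2 was at 138 CPM in DMSO replicate 2 and between 96.1 and 99.9 CPM in the other DMSO libraries. Rrp1b was at 46.5 CPM in DMSO replicate 1 and between 59.2 and 59.97 CPM in the others. Mybbp1a was at 324 CPM in DMSO replicate 4 and between 306.0 and 307 CPM in the others. Ebna1bp2 was at 53.4 CPM in sal003 replicate 4 and between 44.6 and 45.9 CPM in the others.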

How the results depend on the processing

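Of 903 pairs of a member and 1 of 21 alternatives, 790 kept direction and side of the threshold, 72 lost the call, 12 gained it and 29 changed sign, 0 of the last among members past the threshold. Of the 24 members higher, 16 passed in each of the 8 fits without 1 library. Those fits gave member medians from 0.45 to 0.50. They called 18 to 27 members higher (7.76% to 13.4% of all genes) and 1 to 2 lower (9.85% to 13.6% of all genes), with 2 without DMSO replicate 4. They called 3 (without sal003 replicate 3) to 7 small-subunit members higher. For the large subunit they called 2 (without DMSO replicate 1) to 7 higher, with 3 without DMSO replicates 3 or 4 or sal003 replicates 1, 2 or 3, and 0 to 1 lower (1 without DMSO replicate 4), with medians from 0.15 to 0.34. General nucleolar medians ran from 1.03 to 1.25. Library totals as the scaling raised the median of all genes by 0.18 (log2), and gave medians of 0.61 for all members, 1.31 for general nucleolar, 0.36 for large-subunit, 0.53 for small-subunit, 0.90 for snoRNP and 0.63 for polymerase I genes, with 27 members higher (Fbl, Nol11 and Polr1c gained calls) and 0 lower, small-subunit genes included, where 18.2% of all genes were called higher and 8.63% lower. Limma-voom gave medians of 0.49 (members) and 0.29 (large subunit), and Gar1 and Nop16 gained calls. Without a filter Gnl3 and Rrp9 lost theirs. The 10 CPM filter called 2 members lower, 1 of them large-subunit, where 20.4% of all genes were called lower. Adjusted p below 0.01 left 2 large-subunit and 3 small-subunit members higher and 0 lower, where 6.22% and 8.37% of all genes passed. The 1.5-fold test left 4 members higher (1 small-subunit, 0 large-subunit, 1 snoRNP, 0 polymerase I) and 0 lower. Of all genes, 1.68% passed it upward and 4.66% downward.

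The sign changes were near 0. With library totals Bysl was at 0.042, Gnl2 at 0.17, Gnl3l at 0.15, Noc3l at 0.18, Nol6 at 0.086, Nop10 at 0.069 and Rrn3 at 0.047. Gnl2 was at 0.0084 and Noc3l at 0.010 without a filter, Noc3l at 0.0001 without abundant genes, and Gnl2 at 0.080 and Nop10 at 0.067 with limma-voom. In the fits without 1 library Gnl2 ran from -0.042 to 0.11, Gnl3l from -0.079 to 0.050, Noc3l from -0.027 to 0.050, Nop10 from -0.22 to 0.16 and Rrn3 from -0.20 to 0.035. With the replicate number as a block, Gnl2 was at 0.0049 and Noc3l at 0.0011, 23 members were higher and 1 lower (10.5% and 11.2% of all genes), Fbl gained its call and Rrp9 and Wdr12 lost theirs. After each gene's condition mean was removed from log2 CPM, same-numbered libraries of DMSO and sal003 correlated at -0.0050 to 0.035. By this measure 3 of 8 libraries correlated best with their own number, so the numbers were not taken as pairs. Except where a changed filter or threshold is the alternative itself, the cause was not tested. Fits without 1 library change the sample number and the set of libraries together.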
